A study of Mus musculus with 75 samples.

Results

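The core circadian clock genes described here are Clock, Npas2 and Arntl, which encode the activators of the clock, and Per1, Per2, Per3, Cry1 and Cry2, which encode its repressors. The 8 genes were chosen by name, as the rows of the deposited count table that carry their mouse Ensembl identifiers, and all 8 of 8 were found among the 55401 gene identifiers. In the cell clock, ARNTL (also called BMAL1) pairs with CLOCK or with its close relative NPAS2, and the pair binds E-boxes in DNA and turns on the Per and Cry genes. PER and CRY proteins gather, return to the nucleus and inhibit that pair, which closes the loop. NPAS2 is known for its high level in the forebrain, the striatum included, and Per1 is also known as an early gene that answers cAMP and calcium signals through CREB, the route that dopamine D1 receptors use.

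RNA was measured in nuclei of medium spiny neurons sorted from the nucleus accumbens of male mice. All mice carried LSL-eGFP::L10a, a green fluorescent tag that Cre switches on, and either D1-Cre or D2-Cre, so that the tag marks cells in which the promoter of that dopamine receptor gene has driven Cre. Cocaine hydrochloride at 20 mg/kg, or saline, was injected into the abdomen daily for 10 days. After 30 days without injections, 1 challenge of saline or cocaine was given, and the mice were killed 1 h later. In the group names the line comes first, then a letter for the daily injections and a letter for the challenge (S, saline; C, cocaine). The libraries numbered 10 in D1_SS, 9 in D1_SC, 8 in D1_CS, 10 in D1_CC, 9 in D2_SS, 9 in D2_SC, 10 in D2_CS and 10 in D2_CC. The time of day at which tissue was taken, which sets clock gene levels in many tissues, is not given in the sources used here, nor are the ages or whether animals were pooled for a library, so p-values measure the spread between these libraries.

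The 75 libraries differed in ways that touch every value below. Total counts ranged from 19825 to 34870414, and 71 libraries held over 1000000 counts. Olfactory and vomeronasal receptor genes, which neurons of this region do not use, served to measure background, that is, reads spread over the genome. Scaled to all genes, it made up 4.03% to 71.5% of a library. Background was lower in D1_SC (median 18.0%) than in D1_SS (45.5%), D1_CS (63.9%) and D1_CC (55.7%), and 5 of 9 D1_SC libraries but 0 of 10 D1_SS libraries were under 20%. As a check of the labels, Drd2 had more counts than Drd1 in 16 of the 37 D1 libraries, and more per gene length in 2 (D1_CC 4 and D1_CC 9). Both are among the 17 libraries that fail a quality rule on depth, detected genes, marker ratio and correlation. Results were therefore also computed without those libraries, with the background as a covariate, and with the background subtracted. In bulk nuclei a lower value can mean fewer nuclei of a type or less RNA in each, and these cannot be told apart.

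Promoter sequence is shown for Per1 and Npas2, which had the highest levels per gene length and rose with the first challenge, and for Cry1. The change of Cry1 did not pass, but its window holds the E-box CACGTG. The window of Per3, which also rose, is not printed and holds neither motif described below. The sequences run 5′ to 3′ on the gene's strand and end before the first annotated UTR base; they come from RefSeq (GRCm38.p6, the mm10 assembly), whose table held windows for 7 of the 8 genes. Capitals mark the E-box CACGTG and the 5-base core of the cAMP response element, TGACG, read on either strand. The windows are chr11:69098699-69098947 and chr11:69099902-69100151 (plus strand) for the 2 starts of Per1, chr10:85185065-85185304 (minus strand) for Cry1, and chr1:39194022-39194211 (plus strand) for Npas2.
Per1 first start: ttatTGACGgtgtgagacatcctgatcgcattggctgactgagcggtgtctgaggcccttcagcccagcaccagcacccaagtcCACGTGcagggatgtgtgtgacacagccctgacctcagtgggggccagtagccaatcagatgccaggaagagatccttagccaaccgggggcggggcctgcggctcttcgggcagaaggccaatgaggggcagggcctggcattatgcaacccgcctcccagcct
Per1 second start: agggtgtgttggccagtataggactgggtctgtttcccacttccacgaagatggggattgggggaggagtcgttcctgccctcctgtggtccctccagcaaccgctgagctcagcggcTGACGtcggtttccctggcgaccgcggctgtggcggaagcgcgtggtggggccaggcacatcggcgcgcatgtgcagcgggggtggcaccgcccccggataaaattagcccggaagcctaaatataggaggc
Cry1: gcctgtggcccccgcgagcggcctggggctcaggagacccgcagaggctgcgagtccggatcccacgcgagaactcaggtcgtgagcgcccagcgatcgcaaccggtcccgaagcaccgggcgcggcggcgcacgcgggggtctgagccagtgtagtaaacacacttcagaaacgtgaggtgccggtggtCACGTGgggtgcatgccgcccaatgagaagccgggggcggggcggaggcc
Npas2: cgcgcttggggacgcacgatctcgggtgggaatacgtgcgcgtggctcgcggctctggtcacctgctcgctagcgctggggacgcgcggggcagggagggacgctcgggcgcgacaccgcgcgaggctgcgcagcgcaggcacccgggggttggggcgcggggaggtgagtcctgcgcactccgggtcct
In whole windows of 300 bases, CACGTG occurred in 7.15% of the 32851 windows of the table and, among the members, in 1 Per1 window and in the Cry1 window. TGACG on either strand occurred in 20.8% of windows and in 4 member windows, both of Per1 and 1 each of Cry1, where it lies in the stretch not printed, and Cry2, and the full element TGACGTCA in 1.79% of windows and in 0 of the 11 member windows. These matches describe letters in these windows and say nothing of binding.

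The members lie on mm10 as follows, all protein-coding. Per1 (ENSMUSG00000020893.17) spans chr11:69095217-69109960, Per2 (ENSMUSG00000055866.9) chr1:91415982-91459324, Per3 (ENSMUSG00000028957.12) chr4:151003652-151044665, Cry1 (ENSMUSG00000020038.10) chr10:85131700-85185064 and Cry2 (ENSMUSG00000068742.11) chr2:92403646-92434043. Clock (ENSMUSG00000029238.11) spans chr5:76209868-76304792, Npas2 (ENSMUSG00000026077.15) chr1:39193731-39363236 and Arntl (ENSMUSG00000055116.8) chr7:113207465-113314126. Npas2, at 169506 bases, and Arntl, at 106662 bases, are the 2 members over 100 kb, while Per1 is the shortest at 14744 bases. Per3 values are uncertain because the whole gene lies inside the annotated span of Camta1 on the same strand, whose mean level was 583 CPM (counts per 1000000 counts). Cry2 values are uncertain because 77.0% of the gene is overlapped by D930015M05Rik on the other strand, and the strand setting of the counting is not given.

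Levels were compared between genes as FPKM over the full gene span, introns included, after the background was taken off. The rest was then divided by the share of the library that is not background (corrected FPKM). Over the 58 libraries that passed the quality rule, Per1 had the highest level of the 8 genes in 51 libraries, with a median of 3.73, and Npas2 was highest in the other 7, with a median of 1.99. The place of Per1 depends on the division by span (14744 bases for Per1, 169506 for Npas2). In CPM, which is not divided by length, Npas2 lay above Per1 in all of these libraries. Npas2 stood above Clock, the gene whose protein it can replace, in 53 of 58 libraries (medians 1.99 and 1.31). Cry2 (median 1.63) came next, below Npas2 in 41 of 58 libraries, followed by Clock. The order of the next pair could not be told: Per2 (median 1.01) was above Arntl (median 0.99) in 30 of 58 libraries. Cry1 (median 0.63) and Per3 (median 0.43) were lowest, with Cry1 above Per3 in 40 of 58 libraries. In the saline controls, D1_SS and D2_SS, the 8 medians fell in the same order, from Per1 (3.13 and 3.76) down to Per3 (0.42 and 0.41). Much of this signal was close to background: in D1_SS the median uncorrected FPKM of Per3 was 1.61 times the background level, that of Cry1 1.98 times, and that of Per1 6.25 times.

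**Figure D1:**
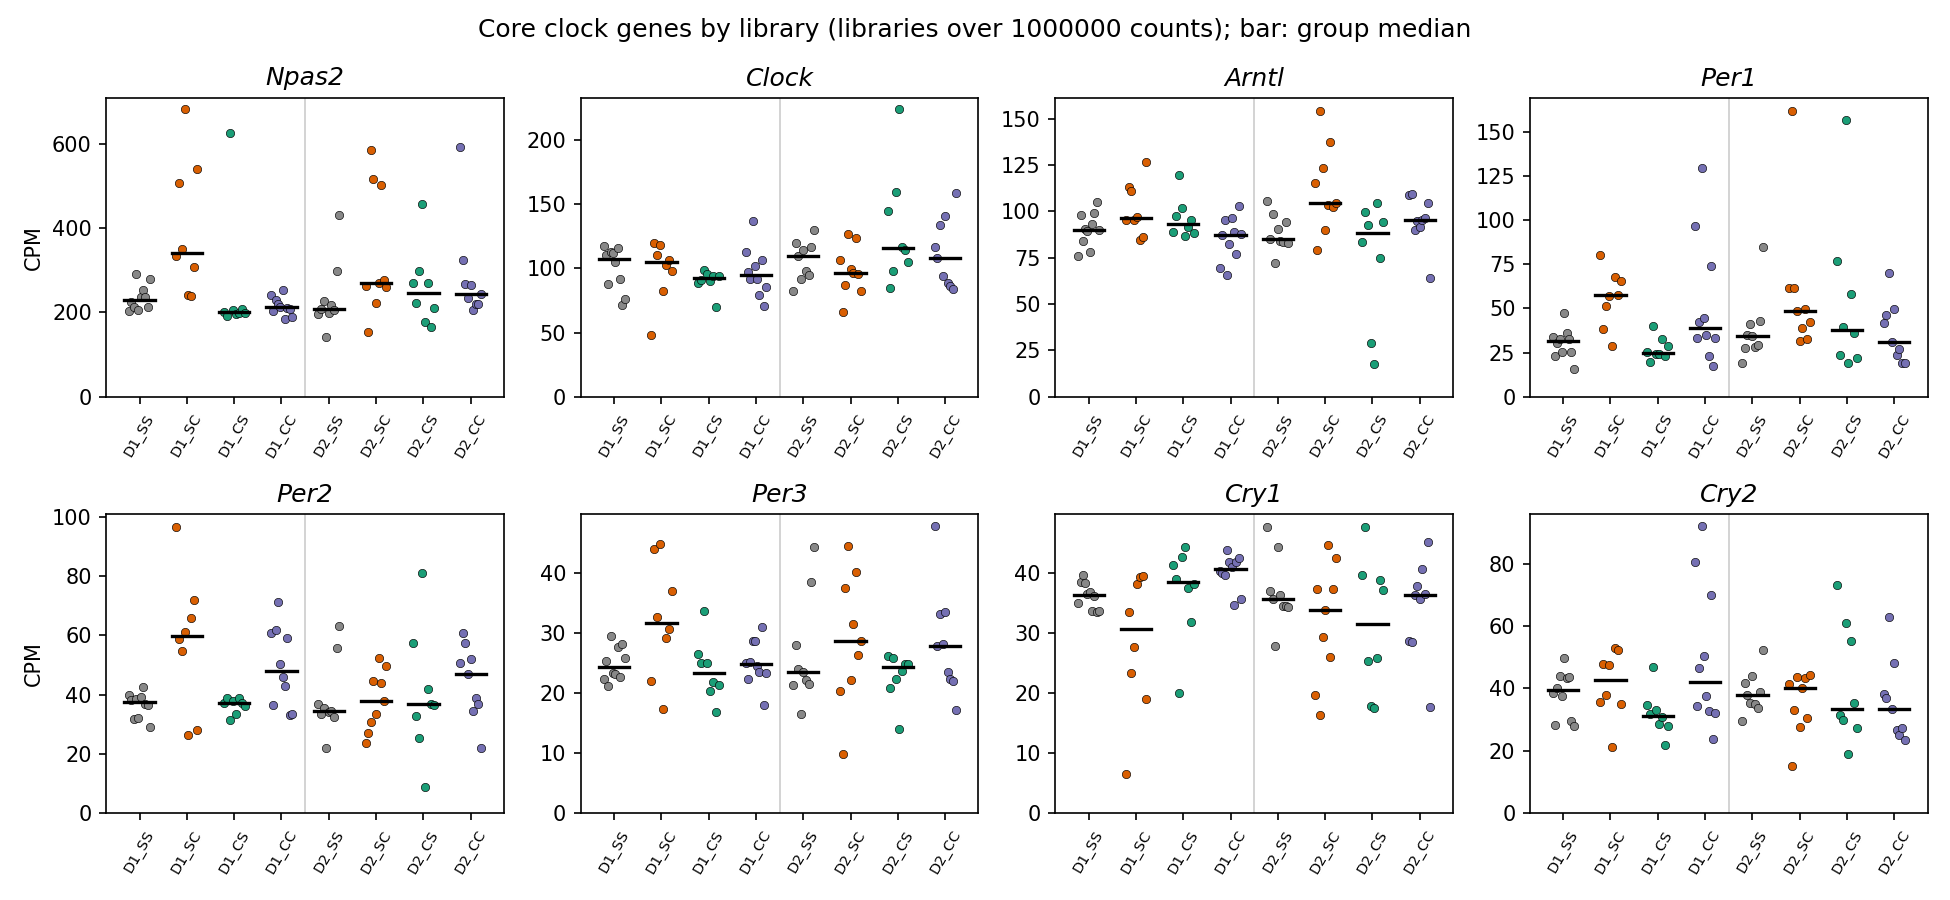
Level of each core clock gene (CPM, linear axis) in each library of over 1000000 counts, by line and treatment group; points are libraries and bars are group medians. Npas2 and Per1 spread upward in D1_SC, with medians of 342 and 57.4 CPM, while the Clock medians of the D1 groups lay between 92.5 and 108 CPM.

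The first question was what a first cocaine injection did in mice that had only had saline (SC minus SS). In the D1 line, 4 of the 8 members rose, beside 9.70% of all 37721 genes tested (11.3% changed in either direction): the activator Npas2 and the repressors Per1, Per2 and Per3. None of the 8 fell, against 1.64% of all genes. The members' median log2 change was 0.89, beside -0.07 for all genes tested. All genes tested are not a like set, since they include genes read near background: with background subtracted, 28095 were tested. Median background was also lower in D1_SC (18.0%) than in D1_SS (45.5%), and how genes of like level moved was not tested. Tests are edgeR quasi-likelihood tests with p-values adjusted over all genes, "rose" and "fell" mean an adjusted p under 0.05, and changes are log2 values from fits scaled by TMM, so they need not equal differences in CPM. Under another scaling (RLE) the median of all genes was -0.25, and the same 4 members passed, beside 8.13% of genes called. They also passed in DESeq2 (9.80% of genes called) and in limma with library weights (7.25% of genes called).

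Npas2 had 202 CPM in the lowest D1_SS library, a median of 230.2 and 291 in the highest. In D1_SC its lowest value was 240.3, its median 349.8 and its highest 682. The groups overlapped in part: 7 of 9 D1_SC libraries lay above every D1_SS library, and 9 of 9 lay above the D1_SS mean. The fitted change of Npas2 was 1.55 (SE 0.33), with an edgeR adjusted p of 0.0040. Arntl, the partner that both CLOCK and NPAS2 need, ranged from 75.9 to 105 CPM in D1_SS (median 90.2) and from 16.9 to 127 in D1_SC (median 95.5). Its change of 0.65 (SE 0.23) did not pass in edgeR (adjusted p 0.055), and the lowest D1_SC value rested on 11 counts. Clock ranged from 71.4 to 118 CPM in D1_SS (median 108) and from 38.4 to 120 in D1_SC (median 103). The change of Clock was 0.50 (SE 0.26; 95% interval -0.02 to 1.01; edgeR adjusted p 0.18), and the groups overlapped over most of their range.

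Per1 ranged from 15.5 to 47.3 CPM in D1_SS (median 31.6) and from 28.8 to 80.3 in D1_SC (median 57.2). Of the 9 D1_SC libraries, 7 lay above the highest D1_SS library and 8 above the D1_SS mean. The change of Per1 was 1.48 (SE 0.38), with an edgeR adjusted p of 0.011. Per2, the close relative of Per1, ranged from 29.0 to 42.4 CPM in D1_SS (median 37.5) and from 13.8 to 96.5 in D1_SC (median 58.9). Its D1_SC libraries fell on both sides of the controls, 6 above the highest D1_SS library and 3 below the lowest. The change of Per2 was 1.13 (SE 0.28), with an edgeR adjusted p of 0.0076. Per3, the family member that the clock can run without, ranged from 21.1 to 29.4 CPM in D1_SS (median 24.3) and from 17.3 to 47.6 in D1_SC (median 32.6). Its change was 1.14 (SE 0.28; edgeR adjusted p 0.0076), with 6 of 9 D1_SC libraries above every D1_SS library and 1 below.

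The cryptochromes, the repressors that bind the activator pair directly, did not pass. Cry1 ranged from 33.5 to 39.7 CPM in D1_SS (median 36.3) and from 1.54, which was 1 count, to 39.5 in D1_SC (median 27.7). In CPM, 6 of 9 D1_SC libraries lay below every D1_SS library, whereas the fitted change was 0.07 (SE 0.26; 95% interval -0.44 to 0.59; edgeR adjusted p 0.88) and turned to -0.16 under RLE scaling. Cry2 ranged from 27.9 to 49.7 CPM in D1_SS (median 39.4) and from 6.14 to 53.1 in D1_SC (median 37.8). The change of Cry2 was 0.58 (SE 0.35; edgeR adjusted p 0.23), with the groups overlapping.

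**Figure D2:**
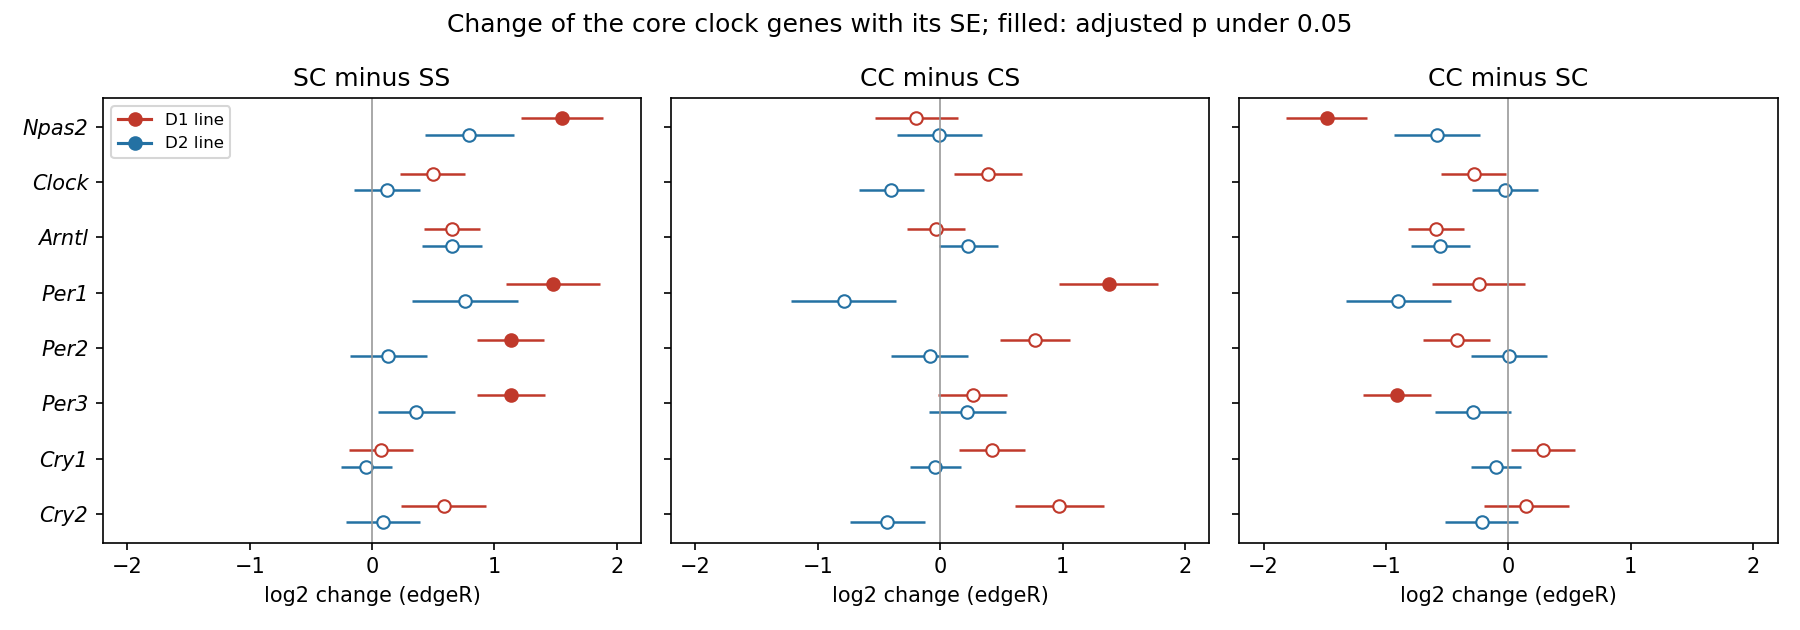
Log2 change of each member from the edgeR fit (horizontal axis) in the D1 line (red) and the D2 line (blue) for 3 comparisons; bars are 1 SE either side and filled points have an adjusted p under 0.05. Filled points are Npas2, Per1, Per2 and Per3 for SC minus SS, Per1 for CC minus CS, and Npas2 and Per3 for CC minus SC, all in the D1 line.

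The 4 genes that rose did not depend on the libraries in the same way. The D1_SC libraries with the least background also held the largest share of counts in genes over 100 kb: that share ranged from 45.1% to 64.1% in D1_SC (median 54.9%) and from 45.0% to 57.8% in D1_SS (median 50.8%). Npas2, itself over 100 kb, was at 508, 541 and 682 CPM in the 3 D1_SC libraries whose long-gene share was 61.7% or more (D1_SC 2, 9 and 4), and at 627 in the library D1_CS 3, which had no cocaine challenge and a long-gene share of 60.1%. A further D1_SC library, D1_SC 5, had 540.3 CPM at a share of 55.0%, from 352 counts. With the background share as a covariate, 0 of the 8 members and 2 of 37721 genes passed in edgeR (0.00530%), and Npas2, Per2, Per1 and Per3 had changes of 0.57, 0.55, 0.52 and 0.32. With the long-gene share as a further covariate, chosen after the data were seen, Per1 alone passed, with a change of 0.84 (edgeR adjusted p 0.026), among 21 genes in all (0.0557%). In that fit Per2 had a change of 0.68 (adjusted p 0.34), Npas2 of 0.20 (adjusted p 0.82) and Per3 of 0.09 (adjusted p 0.97).

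Among libraries with 20% background or more, 4 from D1_SC and 10 from D1_SS, Per2 rose and Npas2 did not pass. The D1_SC libraries kept here include D1_SC 1, which fails the quality rule at 2953172 counts. Corrected FPKM of Per2 was 0.38, 2.03, 2.03 and 2.79 in the 4 D1_SC libraries and 0.52 to 1.07 in D1_SS, so 3 of 4 lay above every control. The change of Per2 there was 1.06 (edgeR adjusted p 0.019), where 1.32% of 39801 genes were called. Per1 had a like pattern, with 3.70 to 7.25 in D1_SC against 1.50 to 4.70 in D1_SS and 3 of 4 libraries above every control, but its change of 1.14 did not pass (adjusted p 0.063). For Npas2 no D1_SC library lay above every control (1.86 to 2.44 against 1.50 to 3.06), and its change was 0.44 (adjusted p 0.12). Per3 had a change of 0.20 (adjusted p 0.68).

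With the background subtracted from the counts, Npas2 (0.97, edgeR adjusted p 0.038) and Per1 (0.98, adjusted p 0.042) rose, beside 1.03% of 28095 genes called, while Per2 (1.00, adjusted p 0.070) and Per3 (1.23, adjusted p 0.35) did not pass. With only libraries passing the quality rule, 5 members rose, Arntl among them (0.70, edgeR adjusted p 0.041), beside 7.78% of genes called. When that rule took its correlation over all genes, Per1 did not pass (1.08, adjusted p 0.089), while Per2, Per3, Npas2 and Arntl did, beside 4.82% of genes called. Single libraries decided several of these calls. Without D1_SC 4, none of the 4 passed, and Npas2 was at 1.09 (adjusted p 0.053), Per1 at 1.18 (0.10), Per2 at 0.84 (0.11) and Per3 at 0.76 (0.11). Without D1_SC 2, Npas2 alone passed, and Per2 was at 0.84 and Per3 at 0.76. Per1 was also lost without D1_SC 5, D1_SC 9, D1_SS 3 or D1_CS 5 (1.18 to 1.27), Per2 without D1_SS 3 (0.96) and Per3 without D1_SC 5 or D1_SC 9 (0.82 and 0.86).

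**Figure D3:**
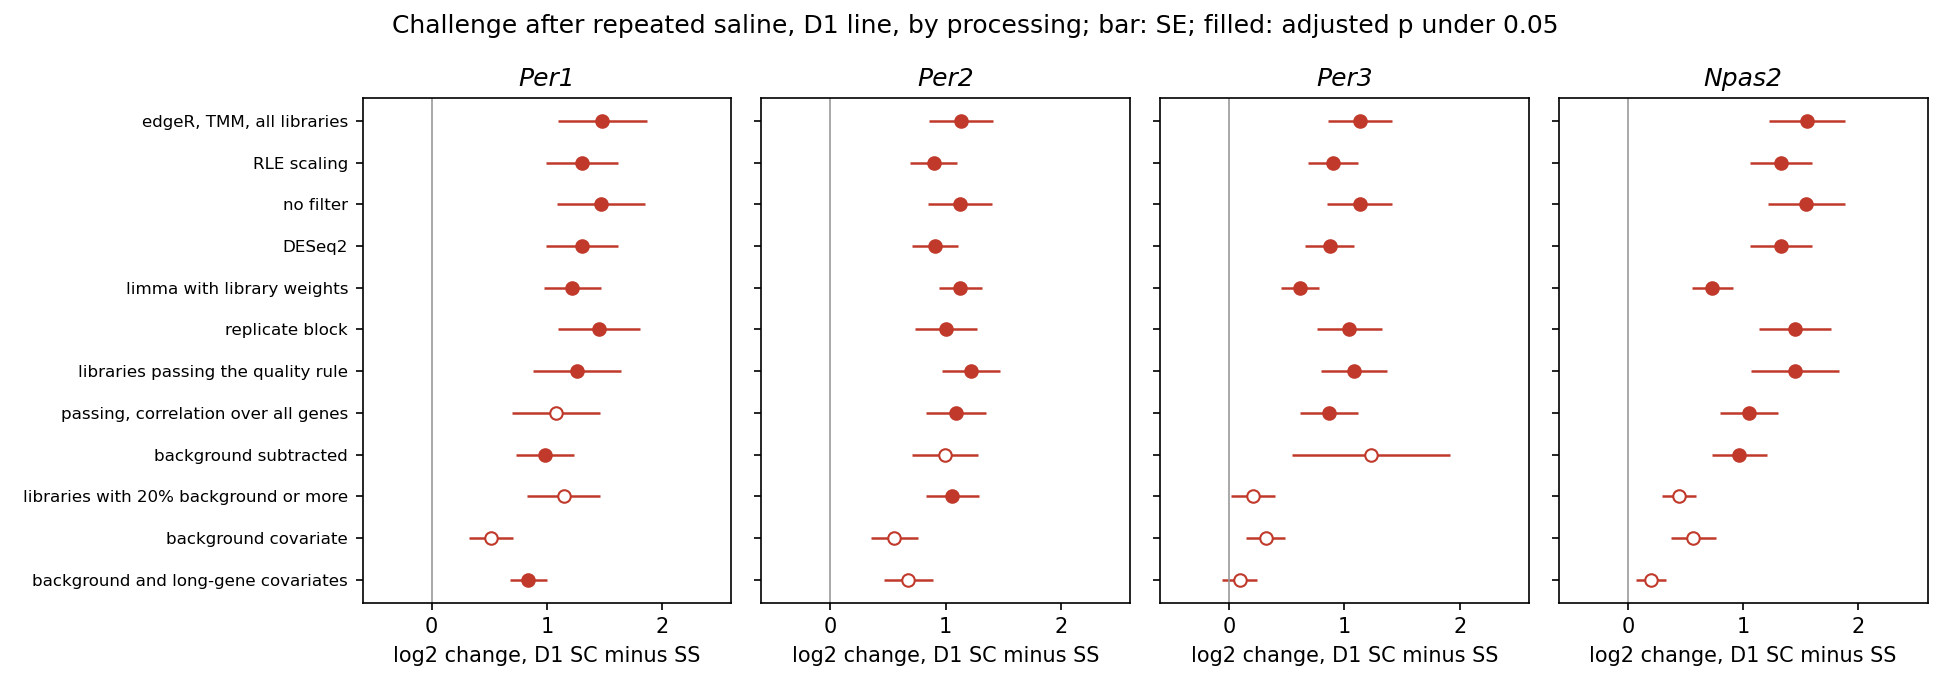
Log2 change in D1 SC minus SS (horizontal axis) of the 4 members that rose, under each way of processing (rows); bars are 1 SE either side and filled points have an adjusted p under 0.05. Per1 and Per2 stay at 0.52 or more in every row, while Npas2 and Per3 come to 0.20 and 0.09 with both covariates.

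**Figure D4:**
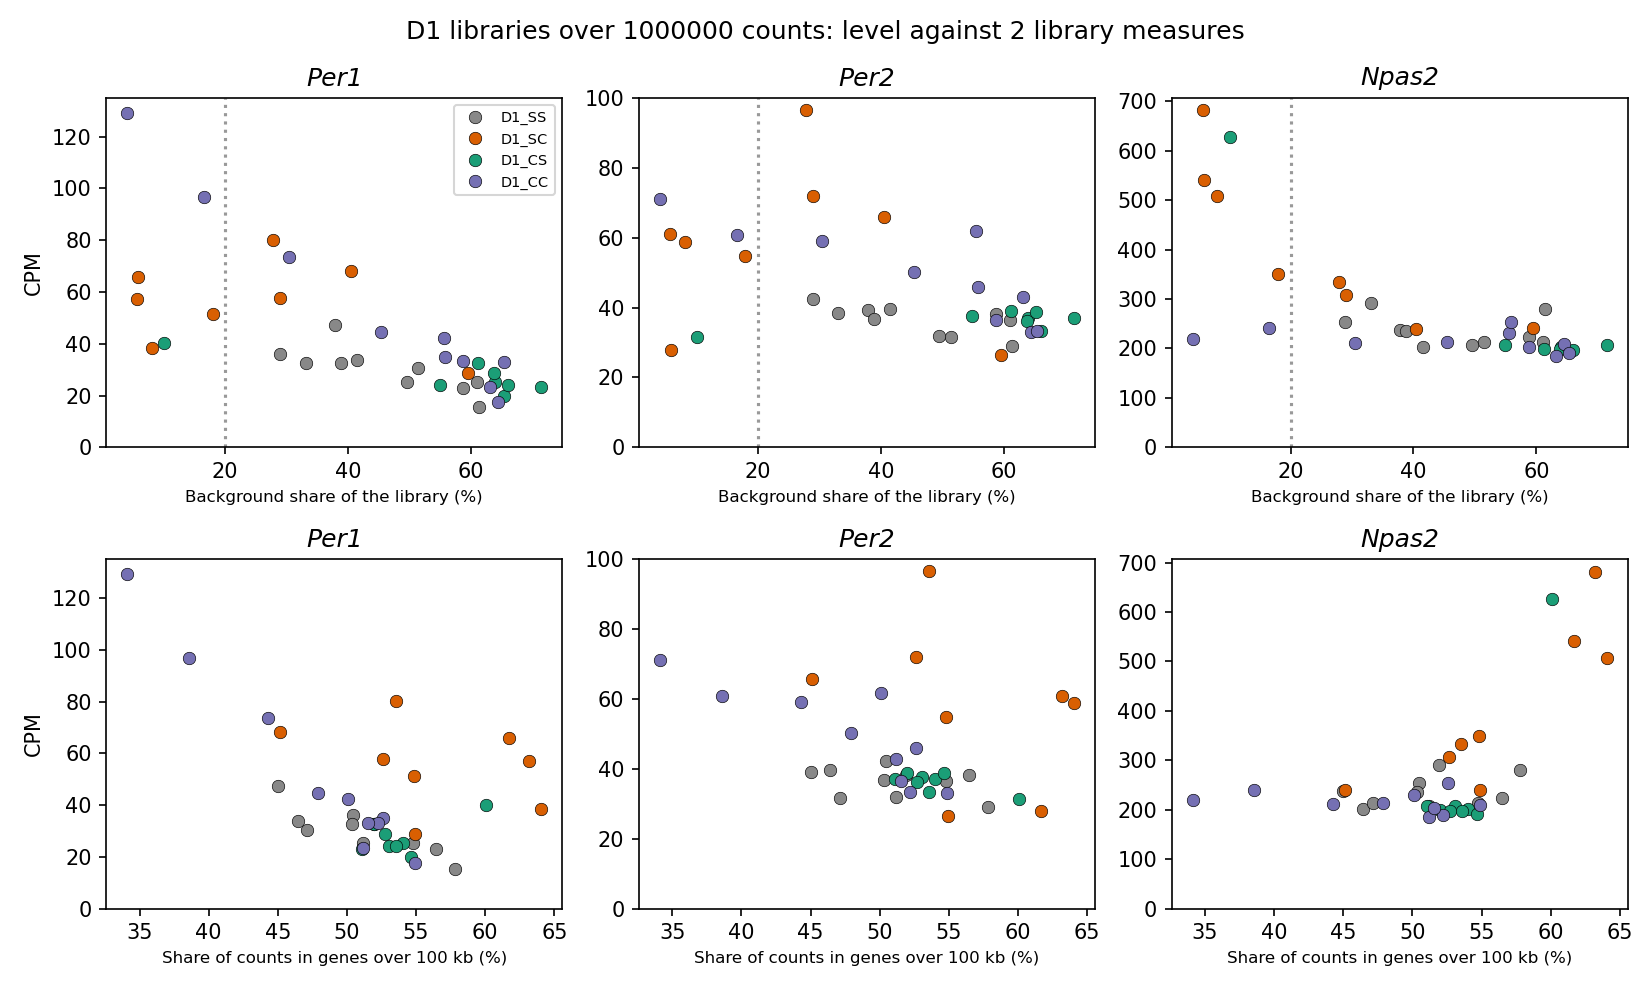
CPM of Per1, Per2 and Npas2 in D1 libraries of over 1000000 counts (vertical axis, from 0) against the background share (upper row) and against the share of counts in genes over 100 kb (lower row); colours are treatment groups and the dotted line is at 20%. The 4 highest Npas2 values, 3 from D1_SC and 1 from D1_CS, are the 4 points farthest right in the lower row.

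Some cell markers moved with the same comparison, in which 9.70% of all genes rose. Of the 10 medium spiny neuron markers 7 rose in D1 SC minus SS, of the 8 D1 neuron markers 0 and of the 6 D2 neuron markers measured 1. Summed D1 neuron markers had a median of 511 CPM in D1_SC (310 to 1120) and of 807 in D1_SS (509 to 1138). Drd2 had more counts than Drd1 in 6 of 9 D1_SC libraries and in 2 of 10 D1_SS libraries. The part of these differences in the clock gene changes was not tested. Of the 8 oligodendrocyte markers 5 rose, of the 8 astrocyte markers 2, of the 7 microglia and endothelial markers 1, of the 6 glutamatergic neuron markers 1 and of the 7 interneuron markers 0. Among libraries with 20% background or more, summed oligodendrocyte markers were 221 to 839 CPM in D1_SC and 160 to 306 in D1_SS, summed astrocyte markers 780 to 1278 and 587 to 821, and summed glutamatergic markers 121 to 279 and 76.1 to 158. The highest oligodendrocyte and astrocyte sums came from D1_SC 1, which fails the quality rule, and the next, 468 and 1059 CPM, from D1_SC 6. No marker of these lists was at 0 in every D1_SC library of over 1000000 counts, and the part of these cells in the Per1 and Per2 values was not tested. D1_CC stood apart in D2 neuron markers, with a summed median of 1058 CPM against 246 in D1_CS, 285 in D1_SC and 339 in D1_SS. Its libraries ranged from 194 to 2310 CPM. Drd2 exceeded Drd1 in D1_CC 7 (380 and 144 CPM) and D1_CC 10 (363 and 98.6 CPM), which both passed the quality rule. The part of this difference in the comparisons with D1_CC was not tested.

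The next question was whether the challenge acted in the same way after repeated cocaine (CC minus CS). In the D1 line Per1 was the 1 member of 8 that rose, beside 8.28% of all genes, and none fell (0.0292% of genes; 8.31% in either direction). Limma with library weights called 2, Per1 and Cry2, beside 12% of genes. Per1 ranged from 19.8 to 40.1 CPM in D1_CS (median 24.8) and from 17.5 to 129 in D1_CC (median 38.7). The groups overlapped, with 5 of 10 D1_CC libraries above the highest D1_CS library and 1 below the lowest. The change of Per1 was 1.38 (SE 0.40), with an edgeR adjusted p of 0.028. The 2 highest values, 129 and 96.8 CPM, came from D1_CC 3 and D1_CC 1, the 2 D1_CC libraries with the least background (4.03% and 16.5%) and the lowest long-gene shares (34.1% and 38.6%). Without D1_CC 3 the change was 0.89 (adjusted p 0.22), and without D1_CC 1 it was 1.18 (adjusted p 0.10). With RLE scaling it was 1.01 (adjusted p 0.072), where 674 of 37721 genes passed. In 6 other alternatives 0 genes of all those tested passed in edgeR, with 921 to 7466 under an unadjusted p of 0.05, so the loss there is not particular to Per1. Its change in them was 0.85 in libraries passing the quality rule (adjusted p 0.48), 1.30 under the rule with correlation over all genes (0.15), 0.86 with the background subtracted (0.11), 0.49 with the background covariate (0.46), 0.21 with both covariates (1.00) and 0.79 in libraries with 20% background or more (0.35). The call was also lost without D1_CS 1, 2, 4, 7 or 8, at adjusted p of 0.052 to 0.069.

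Per2 ranged from 31.5 to 38.9 CPM in D1_CS (median 37.1) and from 33.1 to 71.1 in D1_CC (median 48.0). Though 7 of 10 D1_CC libraries lay above every D1_CS library, its change of 0.78 (SE 0.29) did not pass (edgeR adjusted p 0.089). Cry2, at 21.9 to 46.7 CPM in D1_CS (median 31.2) and 23.7 to 92.1 in D1_CC (median 42.1), had a change of 0.97 (SE 0.37; adjusted p 0.094). The other 5 members had changes from -0.19 (Npas2) to 0.42 (Cry1).

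Between the 2 challenged groups of the D1 line, Npas2 and Per3 were lower after repeated cocaine (CC minus SC), which is 2 of 8 members beside 7.86% of all genes that fell (2.62% rose; 10.5% in either direction). Npas2 had 185 to 254 CPM in D1_CC (median 212), and 8 of 10 of these libraries lay below every D1_SC library. Its change was -1.48 (SE 0.33; edgeR adjusted p 0.0043). The fall passed in 10 of the 11 alternatives, among them -0.56 with the background covariate (18.7% of genes called), -0.65 in libraries with 20% background or more (2.72%), -1.10 with the background subtracted (4.76%), -1.47 in passing libraries (4.56%) and -0.89 in limma, where 7 members and 45.1% of genes were called. With both covariates it was -0.0034. It was lost without D1_SC 4 (-1.03, adjusted p 0.055). Per3 had 18.0 to 31.0 CPM in D1_CC (median 24.7), with no library above the D1_SC mean, and changed by -0.91 (SE 0.28; edgeR adjusted p 0.030). Per3 came to -0.20 with the background covariate and 0.15 with both covariates, and edgeR adjusted p was 0.053 in passing libraries. Leaving out 1 library ended the Per3 call in 10 of 37 cases (D1_SC 2, 4, 5 or 9, D1_CC 8, 9 or 10, D1_CS 3 or 5, or D1_SS 3), and Per3 was at -0.54 without D1_SC 2. Cry2, at 0.15 in this comparison, was called higher with the background covariate (0.68, edgeR adjusted p 0.010) and lower in limma (-0.69). Arntl had a change of -0.59 (SE 0.23; adjusted p 0.079) and passed in DESeq2 (-0.44, adjusted p 0.036), in limma (-0.32) and in libraries passing the all-gene quality rule (-0.64, 0.037). Per1, at -0.24, and Per2, at -0.42, did not pass, with 95% intervals of -0.99 to 0.50 and -0.96 to 0.12.

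The difference between the 2 challenge responses of the D1 line, (CC minus CS) minus (SC minus SS), did not pass for any member in edgeR, with 0 of 37721 genes past the threshold and 3 members under an unadjusted p of 0.05, as were 6936 of the 37721 genes. Npas2 came nearest, at -1.75 (SE 0.47; adjusted p 0.053). It passed in DESeq2 (-1.63, adjusted p 0.0060; 2893 genes called), with RLE scaling (-1.63, 0.035; 1193 genes) and with the background covariate (-0.84, 0.042; 7.14% of genes called). It did not pass in the other 8 alternatives (-0.15 to -1.91), and was -0.75 (adjusted p 0.24) without D1_CS 3, the saline-challenged library with 627 CPM. For Per1 and Per2 the differences were -0.10 (95% interval -1.17 to 0.97) and -0.36 (-1.13 to 0.42).

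Against the saline controls, neither cocaine-history group of the D1 line had a member past the threshold. These 2 comparisons share the D1_SS libraries with SC minus SS. In CS minus SS the 8 changes lay between -0.24 (Cry2) and 0.26 (Npas2), with 0 members and 0 genes called in edgeR, 0 members under an unadjusted p of 0.05, 0 in DESeq2 and 4 in limma with library weights (Cry2, Clock, Npas2 and Per3; 43.9% of genes called). In CC minus SS the 8 changes were all above 0, with a median of 0.29 beside 0.03 for all genes tested. How many genes of like level lay above 0 was not tested. Per1 led at 1.24 (SE 0.37, edgeR unadjusted p 0.0019, adjusted 0.69). In edgeR 3 members had an unadjusted p under 0.05, as did 2627 of all genes. No member was called in edgeR, DESeq2 or limma. Without D1_CC 3 the change of Per1 was 0.75 and that of Per2 0.47. Per2 was at 33.1 to 71.1 CPM in D1_CC against 29.0 to 42.4 in D1_SS, with 7 of 10 libraries above every control, a change of 0.71 (SE 0.27) and an edgeR adjusted p of 0.69.

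In the D2 line no member passed in any of the 6 comparisons in edgeR. For SC minus SS the number of genes called was 0 of 36090 (0.00%), and 2 members, Npas2 and Arntl, had an unadjusted p under 0.05, as did 1914 of all genes. DESeq2 called 0 members and limma with library weights 1 (Per2, 0.36), beside 13.6% of genes. Arntl ranged from 72.0 to 106 CPM in D2_SS (median 85.2) and from 79.4 to 154 in D2_SC (median 105), with 4 of 9 D2_SC libraries above every D2_SS library, and a fitted change of 0.65 (SE 0.25; edgeR adjusted p 0.90). Npas2 ranged from 142 to 432 CPM in D2_SS (median 209) and from 154 to 585 in D2_SC (median 271), a change of 0.80 (SE 0.36; adjusted p 0.94). Per1 ranged from 19.2 to 84.6 CPM in D2_SS (median 34.6) and from 31.6 to 162 in D2_SC (median 48.8), a change of 0.76 (SE 0.43; adjusted p 0.97). That change was 0.46 without D2_SC 2 and 1.23 without D2_SS 9. Per2 had medians of 34.5 and 37.7 CPM and a change of 0.13 (95% interval -0.48 to 0.75). For Npas2 3 of 9 D2_SC libraries lay above every D2_SS library, for Per1 1 and for Per2 0.

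For the other D2 comparisons the percentage of genes called was 0.0859% in CS minus SS, 0.252% in CC minus CS, and 0.00% in CC minus SS, CC minus SC and the interaction. In D2 CS minus SS the 8 changes lay between -0.15 (Per3) and 0.65 (Per1), and in CC minus SS between -0.15 (Cry1) and 0.21 (Npas2). In CC minus CS they lay between -0.79 (Per1) and 0.23 (Arntl), and in CC minus SC between -0.90 (Per1) and 0.01 (Per2). Members under an unadjusted p of 0.05 numbered 0, 0, 0 and 2 in these 4 comparisons, beside 1811, 380, 2853 and 1192 of all genes, and 1 in the interaction, beside 2146, where Per1 was at -1.55 (SE 0.61; adjusted p 0.71). DESeq2 called 0 members in these 5 comparisons, and limma 1, Cry2 in CC minus SS, beside 23.3% of genes. The D2_CS and D2_CC groups hold 3 libraries of under 1000000 counts, in which a member was read from 0 to 8 counts.

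The difference between the lines in their response, (D1 SC minus SS) minus (D2 SC minus SS), was not past the threshold for any member. It was 0.96 for Per2 (SE 0.44; unadjusted p 0.033, edgeR adjusted p 0.89), 0.70 for both Per1 (SE 0.61) and Npas2 (SE 0.52), and -0.04 for Arntl, beside 0.0280% of 39250 genes called. The Per1 value rests on a D2 change that single libraries moved. The rises in the D1 line are therefore not shown to differ from the changes in the D2 line. In the saline controls alone all 8 members had changes below 0 for D1 minus D2, from -0.61 (Per1) to -0.12 (Arntl), with 0 called in edgeR, DESeq2 and limma, 0 under an unadjusted p of 0.05, and 0.0255% of genes called. Averaged over the 4 treatments, the differences lay between -0.34 (Clock, SE 0.14; unadjusted p 0.021, adjusted p 0.65) and -0.02 (Per2), with 0 members called in edgeR and DESeq2, 1 in limma (Per2, beside 13.3% of genes), and 0.204% of genes called in edgeR.

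Other genes around the clock were read from a list of 20, covering the nuclear receptor loop, the D-box factors, the DEC repressors and the kinases and ubiquitin ligases that act on PER and CRY. In D1 SC minus SS 5 of 20 rose, with a list median of 0.53, beside 9.70% of all genes. Btrc, which encodes a ubiquitin ligase subunit that marks PER for breakdown, rose by 0.98 (SE 0.23; edgeR adjusted p 0.0061), and Rora, an activator of Arntl, by 1.18 (SE 0.28; adjusted p 0.0062). Fbxw11, the relative of Btrc, rose by 0.88 and Nr1d2, a repressor of Arntl, by 1.10. With both covariates 0 of 20 passed, where 0.0557% of all genes did. In D1 CC minus CS 6 of 20 rose, with a list median of 0.70, beside 8.28% of all genes, and the 4 with the smallest p were Bhlhe40 (2.02), Nr1d1 (2.07), Dbp (2.02) and Ciart (1.36), known outputs of E-boxes. With both covariates, or in libraries with 20% background or more, 0 genes of all those tested passed in that comparison, those of the list included. In D2 SC minus SS 0 of 20 passed in edgeR.

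Per1 belongs with early genes that CREB switches on, so a list of 20 other such genes was read beside it. In D1 SC minus SS 5 of 20 rose, beside 9.70% of all genes. A change above 0 was found for 20 of 20, with a median of 0.54 beside -0.07 for all genes tested. The 8 clock members were all above 0 as well. All genes tested include genes read near background, which was lower in D1_SC than in D1_SS. How many genes of like level lay above 0 was not tested. Pde4b rose by 1.67, Nr4a3 by 1.55, Homer1 by 1.49 and Fosl2 by 1.17. In libraries with 20% background or more, 4 of 20 rose, beside 1.32% of all genes called. The summed level of the list was 1448 to 1934 CPM in the 4 D1_SC libraries and 845 to 1356 in the 10 D1_SS libraries. The highest of these values came from D1_SC 1, which fails the quality rule. How many other gene sets part these libraries in the same way was not tested. In D1 CC minus CS 5 of 20 rose, beside 8.28% of all genes, among them Fosb (1.70), Egr1 (2.11), Junb (2.32) and Gadd45b (1.75). With both covariates 0 of 20 passed in SC minus SS, where 0.0557% of all genes did, and in CC minus CS 0 of all genes did. The glucocorticoid receptor also drives Per1, and of 10 known targets 3 rose in D1 SC minus SS, beside the same 9.70% of all genes (Sgk1, 1.17; Klf9, 1.19; Errfi1, 0.95) and 3 in D1 CC minus CS, beside 8.28% (Mt1, 2.45; Klf9, 1.42; Nfkbia, 1.38).

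The genes whose pattern over the 8 group means was most like a member were found by Pearson's r among 16340 genes, as a description over 8 points that share libraries, background and depth. For Per1 they were Mtor, Ccm2 and Prr12 (r of 0.98 to 0.99), and for Per2 Zdhhc6, Kcnip3 and Chst15 (0.97 to 0.98). For Per3 they were Cobl, Dclk2 and Edrf1, for Cry1 Nfya, Bbs1 and Zfp940, and for Cry2 Cbx6, Rbbp4 and Dnajb12. For Npas2 they were Xkr6, Mapkbp1 and Sorcs1, and for Arntl Mcu, Unkl and Chchd3.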

How the data were processed

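Total RNA of sorted nuclei was made into stranded, low-input libraries, per the labels' protocols. The counts deposited by the authors are whole reads per gene. FeatureCounts, DESeq2 and the build mm10 are named in the submitters' processing notes; versions, aligner and strand setting are not given in the sources used here. Deposited by the authors too, the FPKM values divide each count by the library total and by the full gene span (equal to GENCODE M21 within 0.5 bases for 54271 of 54271 identifiers compared), so intronic reads count. Replicates are labelled as separate samples.

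The test was that of edgeR 4.0.16 (R 4.3.3; TMM, filterByExpr, quasi-likelihood, two-sided), the 4 groups of a line fitted together (37 D1 and 38 D2 libraries) and all 75 across lines; p-values were adjusted by Benjamini-Hochberg over all genes. Alternatives used RLE scaling, no filter, DESeq2 1.42.0, limma 3.58.1 with library weights, the quality rule, background as covariate or subtracted, a replicate block, and each library left out. A further 3 alternatives were chosen after seeing the data: the quality rule with correlation over all genes, background and long-gene covariates, and libraries with 20% background or more. Background came from 1738 silent genes. The quality rule failed a library with a total under its line's median divided by 3 or with outlying gene number, Drd1 to Drd2 ratio or correlation. Intervals are the change ± 1.96 SE. In a simulation of D1 SC minus SS over 36800 genes, 100% of 200 genes changed by a log2 value of 2 were recovered, with 13 false calls. It gave all genes the same spread and the groups no difference in background, and its change exceeds that of every member. The simulation is thus a check of the code and does not measure power or false calls for these members.

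Named genes are the 8 members, at most 4 per list by smallest p, Drd1 and Drd2, and the 3 genes most like each member (those of Clock are not reported here). Members, lists and tests were chosen with earlier results of these data known.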

Additional observations from a re-analysis of the deposited data

Results flagged for a closer look

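In 9 of the 64 sets of libraries tested (8 genes in 8 groups), 1 library stood apart from the rest of its group in CPM by Dixon's criterion, which chance alone meets in about 1 of 20 sets. Of these, 3 concerned Per1: 157 CPM in D2_CS 3 (next 76.7), 162 in D2_SC 2 (next 61.6) and 84.6 in D2_SS 9 (next 42.9). Background was 8.96%, 46.4% and 5.29% in those libraries. Npas2 stood apart at 627 CPM in D1_CS 3 (next 207) and at 593 in D2_CC 1 (next 325), libraries with long-gene shares of 60.1% and 62.3% and backgrounds of 10.1% and 14.8%. Arntl was high in D1_CS 3 (120 CPM, next 102), low in D2_CC 9 (64.1, next 89.8) and low in D1_SC 5 (16.9, next 84.6), the last on 11 counts. Clock was low in D1_CS 7 (69.9 CPM, next 88.8), the library with the highest background, 71.5%. What made these libraries differ was not tested.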

How the results depend on the processing

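Of 297 single-gene values under alternatives other than leaving out a library, 240 kept their direction and side of the threshold, 27 lost and 10 gained the call, and 20 turned direction.

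In D1 SC minus SS (4 members past the threshold), 0 passed with the background covariate, 2 with the background subtracted, 1 with both covariates and 1 in libraries with 20% background or more, and 0 to 5 when 1 library was left out. In D1 CC minus CS (1 member) the number was 2 in limma and 0 with RLE scaling, without failing libraries under either rule, with either set of covariates, with the background subtracted and with 20% background or more, and 0 to 3 with a library left out. In D1 CC minus SC (2 members) it was 7 in limma, 3 in DESeq2 (13.2% of genes called), 1 without failing libraries, 1 with the background subtracted, 1 with 20% background or more, 0 with both covariates (0.0265% of genes), and 0 to 3 with a library left out. Equal counts can hide other genes: in D1 SC minus SS the all-gene quality rule lost Per1 and gained Arntl, and in D1 CC minus SC the background covariate lost Per3 and gained Cry2, called higher. For the D1 interaction (0) it was 1 with RLE, DESeq2 and the background covariate, and 0 to 1 with a library left out. In limma, D1 CS minus SS had 4, and D2 SC minus SS, D2 CC minus SS and the mean line difference had 1 each.

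Direction turned in D1 SC minus SS for Cry1 (-0.16 with RLE, -0.11 in DESeq2, -0.17 with the background covariate, -0.032 with the background subtracted, -0.10 with both covariates, -0.035 with 20% background or more; -0.24 to 0.20 with a library left out), Cry2 (-0.26 and -0.11 with 1 and both covariates), Clock (-0.15 and -0.17 with 1 and both covariates, -0.052 with 20% background or more) and Arntl (-0.014 with both covariates). It turned in D1 CC minus SC with both covariates for Per3 (0.15) and Arntl (0.19). In the D1 interaction it turned for Per1 without failing libraries by the all-gene rule (0.22; -0.59 to 0.49 with a library left out) and for Per2 with a library left out (-0.60 to 0.0043). In D2 SC minus SS Per2 came to -0.0033 and -0.044 with 1 and both covariates. In the line difference of that response Per1 came to -0.085 with the background covariate and Npas2 to -0.25 without failing libraries by the all-gene rule. In the mean line difference Clock came to 0.044 in limma. The causes were not tested.

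Same-numbered libraries did not deviate together on average, with a mean correlation of 0.01 in D1 and 0.05 in D2. Single pairs went down to -0.80 in D1 and -0.78 in D2, while 19 of 52 D1 pairs and 22 of 55 D2 pairs were over 0.1. The mean cannot show whether some same-numbered libraries share a batch. With the replicate number as a block, 4 members passed in D1 SC minus SS (4.98% of genes called) and 1 in D1 CC minus CS (7.39%). In D1 CC minus SC 1 member passed (3.89% of genes called), and Per3 was at -0.89 (edgeR adjusted p 0.060).

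The number of genes called moved widely when 1 library was left out, from 459 to 10348 in D1 SC minus SS, 0 to 5700 in D1 CC minus CS and 683 to 8900 in D1 CC minus SC. Low depth limited the 4 libraries of under 1000000 counts, and background limited Per3 and Cry1, which lay closest to it.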
